A study of Mus musculus with 14 samples.

Results

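C1qa, C1qb and C1qc encode the A, B and C chains of C1q, and they were taken by symbol from every feature table as 3 of 19465 genes in the cross sections and 3 of 32285 named genes in the purchased sections. Gene expression was measured with Visium, a probe-based assay that counts transcripts in barcoded spots laid under a formalin-fixed tissue section, each spot wide enough to hold several cells. Of 14 mouse sections, 6 were from purchased wild-type C57BL/6 mice with 1 section per group, namely an E14.5 fetal liver, an E13.5 fetal liver, a P8 bone marrow, an 89-week bone marrow that was cryosectioned without decalcification, an adult bone marrow of 6 months decalcified in EDTA, and an adult spleen. The other 8 were from matings of C1qa heterozygotes and comprised 2 wild-type and 2 C1qa knockout E14.5 fetal livers (numbers 2 and 4, each number 1 litter) and 2 wild-type and 2 C1qa knockout spleens (numbers 1 and 2), of 3 months by the labels and of a younger age, 2 months, by the legends of the study. The knockouts lack C1qa in the whole animal, no drug or stress was applied to any group, and the deleted segment is not given in the sources used here. All values are over the in-tissue spots that reached a minimum of 1000 genes, which numbered 4389 in the purchased and 11596 in the cross sections.

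C1q is the recognition unit of the classical complement pathway. Its A, B and C chains assemble together into a bouquet of collagen-like stems and globular heads that binds immune complexes, dying cells and other surfaces, and in the blood it carries the proteases C1r and C1s. Unlike most complement proteins, which come from hepatocytes, C1q is made mainly by tissue macrophages, among them the central macrophages of erythroblastic islands in fetal liver and bone marrow and the red pulp macrophages of the spleen.

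The 3 genes are neighbours on chromosome 4 of mm10 (GRCm38.p6), in the order C1qb (136880126 to 136886200), C1qc (136889801 to 136892936) and C1qa (136895916 to 136898844). They span 18719 bp, with gaps of 3600 bp between C1qb and C1qc and of 2979 bp between C1qc and C1qa. The RefSeq promoter table of GRCm38.p6 matched C1qb and C1qc. The table's windows, 250 bases before the transcription start it lists for each gene, are shown because these genes lie side by side and yet differed in their relative counts between tissues. Capitals mark 2 motifs searched on both strands, GAGGAA, a core read by ETS-family factors such as PU.1 of macrophages, and TGCTGA, a core read by MAF factors. The motifs do not overlap one another here. The C1qb window ends where the gene begins, whereas that of C1qc belongs to a start inside the gene's span and so overlaps it, and motif distances are counted from the start of each window's own transcript.
C1qb, chr4:136886201-136886450, minus strand: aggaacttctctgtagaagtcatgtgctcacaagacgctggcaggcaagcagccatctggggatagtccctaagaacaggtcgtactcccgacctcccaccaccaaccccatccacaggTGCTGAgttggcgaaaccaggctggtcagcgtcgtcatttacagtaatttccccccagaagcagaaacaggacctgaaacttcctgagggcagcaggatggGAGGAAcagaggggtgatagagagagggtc
C1qc, chr4:136892915-136893164, minus strand: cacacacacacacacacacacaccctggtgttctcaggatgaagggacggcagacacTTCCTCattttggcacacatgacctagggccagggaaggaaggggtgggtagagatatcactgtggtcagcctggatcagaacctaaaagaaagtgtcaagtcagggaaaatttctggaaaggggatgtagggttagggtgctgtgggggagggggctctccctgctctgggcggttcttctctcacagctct
GAGGAA starts 30 bases before the C1qb start and, on the reverse strand, where it reads TTCCTC, 193 bases before the C1qc start. TGCTGA was found 131 bases before the C1qb start and not in the C1qc window. Among 32851 mouse promoter windows of the same length, 23.3% hold GAGGAA, 16.1% hold TGCTGA and 3.68% hold both, so each match is common and is given as a description.

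Depth ranged from 4225805 to 39595661 UMIs (unique transcript counts) per cross section and from 8431788 to 55937699 per purchased section, apart from the EDTA-decalcified marrow, where 15 spots passed with 37135 UMIs in all. Wild-type spleen 2 was the shallowest cross section, with a median of 2293.5 UMIs per spot and 81.9% of its in-tissue spots passing. Hepatocyte genes took 3.09% and 1.98% of UMIs in the purchased E14.5 and E13.5 livers, 9.61% and 4.73% in the livers of litter 2, but 0.654% in wild-type and 1.04% in knockout liver 4. In those 2 sections of litter 4, 29.4% and 62.1% of spots took at least 0.5% of their UMIs from hepatocyte genes, and the rest was poor in them. Among the spleens, pancreas genes took 2.31% of UMIs in knockout spleen 2 and 0.356% in knockout spleen 1, against 0.00438% and 0.0819% in wild-type spleens 1 and 2. B cell genes took 0.447 to 0.651% of UMIs in all 5 spleens. The feature tables and the software differ between purchased and cross sections, so no test was made between them.

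In fetal liver the 3 subunits were measured at similar levels, in CPM, the counts of a gene scaled to 1000000 UMIs. The purchased E14.5 liver had 62.5 CPM of C1qa, 61.4 of C1qb and 78.9 of C1qc, and the E13.5 liver had 64.3, 76.5 and 81.0 CPM. Wild-type liver 2 of the cross had 95.9, 92.8 and 132 CPM, and wild-type liver 4 had 25.8, 31.8 and 32.2 CPM. The 2 wild-type livers thus differed more from each other than from the purchased livers, with liver 4, the section poor in hepatocyte genes, the lowest for every subunit. In its 237 hepatocyte-positive spots the levels were much the same, at 27.6, 31.9 and 34.6 CPM.

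The spleen was the tissue with the most C1qa and C1qc. The purchased adult spleen had 570 CPM of C1qa, 253 of C1qb and 403 of C1qc. In the cross, wild-type spleen 1 had 218 CPM of C1qa, 73.5 of C1qb and 220 of C1qc, and wild-type spleen 2 had 269, 62.5 and 255 CPM. C1qa and C1qc were higher in every wild-type cross spleen than in any fetal liver, whereas the C1qb levels of those spleens lay inside the range of the cross livers, 29.1 to 92.8 CPM. In bone marrow, P8 marrow had 72.9 CPM of C1qa, 68.2 of C1qb and 70.5 of C1qc, and the 89-week marrow had 92.9, 35.2 and 47.0 CPM. The study took the P8 section from a femur, and all its passing spots were used without separating marrow from other tissue. The order of C1qb was therefore purchased spleen first and the 89-week marrow and litter 4 livers last, and the cross spleens and the livers of litter 2 in between did not separate by tissue. The 15 passing spots of the EDTA-decalcified marrow held 8 counts of C1qa, 0 of C1qb and 2 of C1qc, and the floor of 3 counts is 80.8 CPM there. Over all 814 of its in-tissue spots, most of which held under 1000 genes, C1qa was 109 CPM, C1qb 6.68 CPM (3 counts, exact 95% Poisson interval 1.38 to 19.5) and C1qc 46.7 CPM, so that at this depth C1qb lay below the 35.2 and 68.2 CPM of the other marrows, with 1 section and another preparation each. In bulk sums of this kind, fewer macrophages and less C1q RNA per macrophage cannot be told apart.

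**Figure D1:**
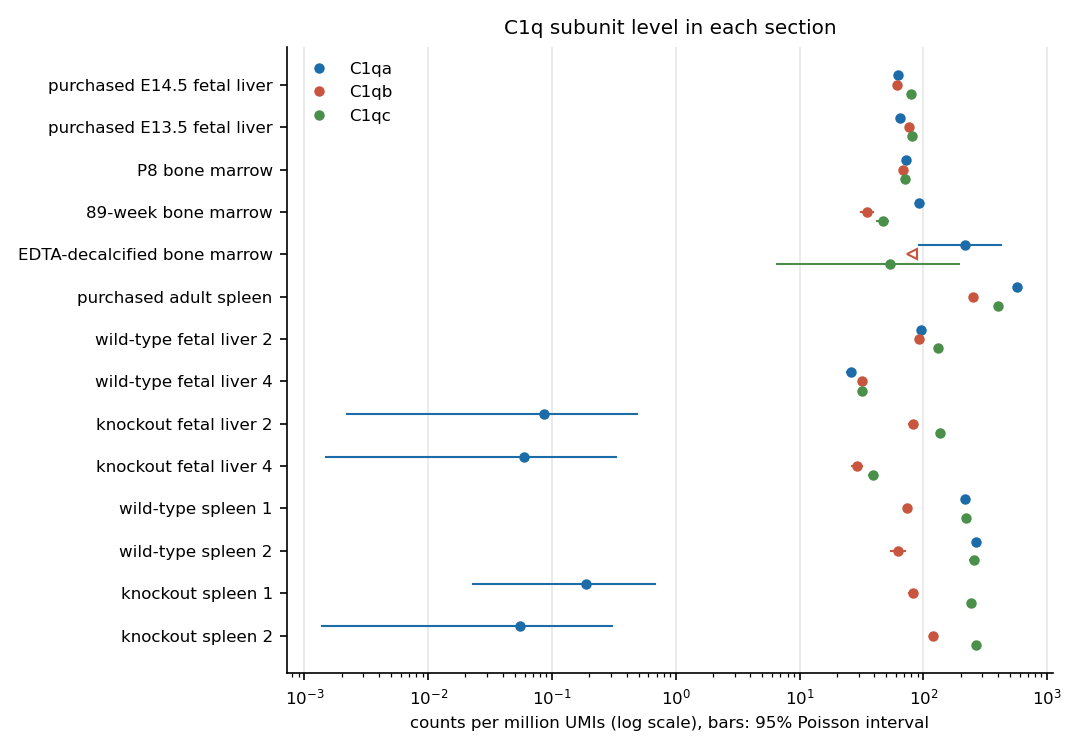
Level of C1qa (blue), C1qb (red) and C1qc (green) in each of the 14 sections, in CPM on a log axis, with bars for exact 95% Poisson intervals, which cover counting error only. The open triangle marks the floor of 3 counts where C1qb had 0. C1qa lies below 0.2 CPM in the 4 knockout sections, and In the 2 wild-type cross spleens C1qa and C1qc lie above 200 CPM while C1qb lies inside its range in the cross livers, and in the purchased spleen all 3 are higher than in the purchased livers.

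Set against general macrophage genes, the subunits were also unequal. Adgre1, Csf1r, Cd68, Mertk and Aif1, which are expressed by most macrophages, summed to 95.5 to 189 CPM in the 6 fetal livers, 372 CPM in P8 marrow, 225 CPM in 89-week marrow and 623 to 781 CPM in the 5 spleens. C1qb had 0.293 to 0.492 counts per count of these genes in the cross livers and 0.0942 to 0.175 in the cross spleens. C1qc had 0.337 to 0.791 in the cross livers and 0.282 to 0.409 in the cross spleens. The cross livers and cross spleens did not overlap in C1qb per macrophage count but did in C1qc.

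The ratio between subunits differed by tissue. How well a probe set captures each gene is not known, so a ratio is read here against the same ratio in other sections of the same feature table and not as a proportion of molecules. In the cross livers C1qc counts were 1.42 and 1.01 times the C1qb counts in wild-type 2 and 4 and 1.66 and 1.34 times in knockout 2 and 4. In the cross spleens they were 3.00 and 4.08 times in wild-type 1 and 2 and 2.96 and 2.22 times in knockout 1 and 2. No liver reached the lowest spleen. On the log2 scale the ratio averaged 1.58 ± 0.36 in spleen and 0.42 ± 0.30 in fetal liver (SD, n = 4 each), a difference of 1.16 or 2.23-fold. The 2-sided exact permutation test over sections gave p = 0.0286, the smallest these 8 sections allow, and 0.114 after Benjamini-Hochberg adjustment over 4 ratio tests. The test took same-numbered livers, which are littermates, as independent sections. The difference was 1.54 in the wild types alone and 0.78 in the knockouts alone. Tissue and age cannot be told apart here, as all livers were embryonic and all spleens adult.

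C1qa was shifted against C1qb in the same direction. C1qa counts were 1.03 and 0.812 times those of C1qb in wild-type livers 2 and 4, and 2.96 and 4.30 times in wild-type spleens 1 and 2. The log2 ratio was 1.96 higher in spleen, or 3.90-fold, without overlap, but 2 sections against 2 cannot go below p = 0.333 in the exact permutation test (adjusted p = 0.444). The C1qa to C1qc ratio was 0.726 and 0.802 in the wild-type livers and 0.988 and 1.05 in the wild-type spleens. In these wild-type cross sections the larger tissue difference thus lay in ratios that contain C1qb. Restricting the livers to hepatocyte-positive spots left C1qc to C1qb at 1.43 and 1.08 in wild-type 2 and 4 and at 1.66 and 1.42 in knockout 2 and 4, and C1qa to C1qb at 1.03 and 0.864.

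The purchased sections, with their own feature table, gave C1qc to C1qb ratios of 1.28 in the E14.5 liver, 1.06 in the E13.5 liver and 1.60 in the spleen. Their C1qa to C1qb ratios were 1.02, 0.840 and 2.25. Their C1qa to C1qc ratios were 0.793, 0.794 and 1.41, so here C1qa to C1qc set the spleen further apart than C1qc to C1qb did. The spleen was again the higher tissue, with 1 section, so that there is no replicate check. Between the marrows, C1qa to C1qb was 1.07 at P8 and 2.64 at 89 weeks, with an exact 95% interval of 2.30 to 3.02 for the latter, whereas C1qc to C1qb was 1.03 and 1.33. C1qa to C1qc was 1.03 at P8 and 1.98 at 89 weeks. The intervals cover counting error only, and the marrows differed also in software version and in preparation. All passing P8 spots were used, without separating marrow from other tissue.

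**Figure D2:**
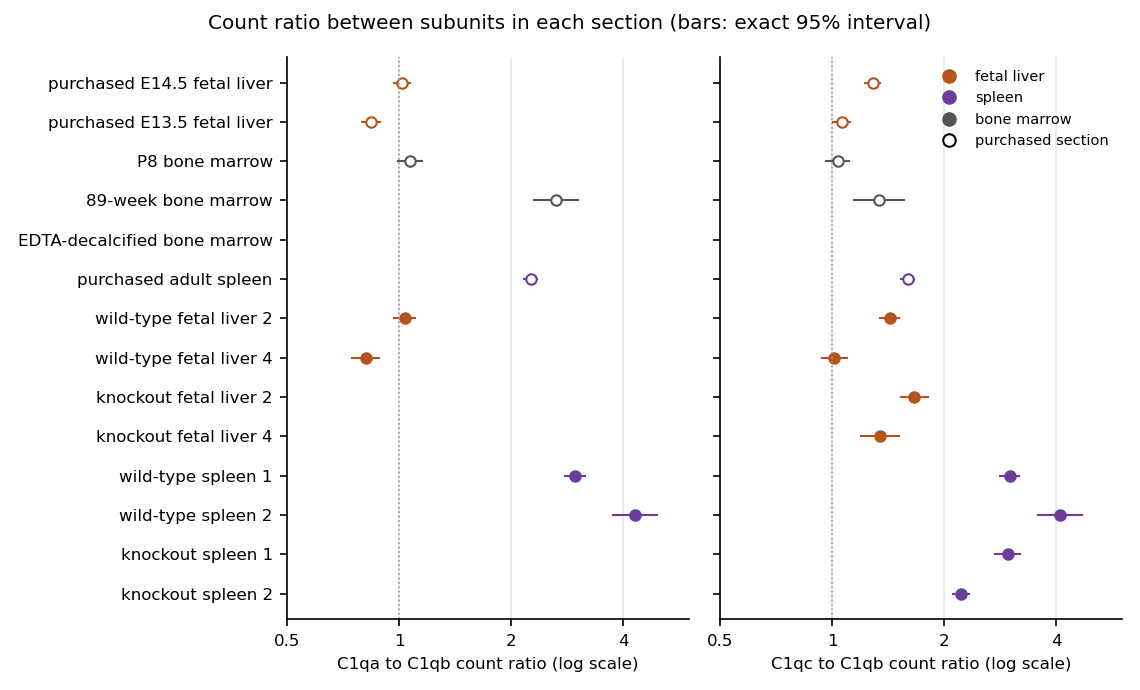
Count ratios of C1qa to C1qb and of C1qc to C1qb in each section, on log axes, with bars for exact 95% intervals of counting error, colours for tissues and open points for purchased sections. Knockouts have no C1qa ratio. The cross spleens lie at 2.22 to 4.08 for C1qc to C1qb and the cross livers at 1.01 to 1.66.

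The tissue difference was also seen in parts of each section. Spots were ranked by the share of their UMIs from a list of 20 erythroid marker genes, and the 25% with the highest and the 25% with the lowest share were compared. C1qc to C1qb ranged from 0.976 to 1.83 over the 8 such sets of spots in cross livers and from 1.94 to 3.85 over the 8 sets in cross spleens. C1qa to C1qb ranged from 0.679 to 1.13 in wild-type cross livers and from 2.98 to 4.56 in wild-type cross spleens. No set of spleen spots fell into the liver range, whether rich or poor in erythroid genes. With spots ranked by B cell genes, C1qc to C1qb reached 2.00 in knockout liver 2 and went down to 1.91 in knockout spleen 2, so that these ranges met.

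At equal depth, the share of spots with a count followed the levels. Each spot was thinned to 2000 UMIs, and shallower spots were left out (0 to 44 per section, and 554 in wild-type spleen 2). In the 6 livers 6.82 to 17.4% of spots held C1qb and 6.58 to 23.3% held C1qc, and in the 4 wild-type livers 4.71 to 17.5% held C1qa. In the cross spleens 36.0 and 37.4% of spots held C1qa in wild types, 35.3 to 38.9% held C1qc and only 10.5 to 20.4% held C1qb. The purchased spleen was higher for each, at 65.0%, 38.4% and 54.0% for C1qa, C1qb and C1qc. P8 marrow had 12.9%, 13.2% and 13.3%, and 89-week marrow 17.7%, 6.67% and 8.92%. Without thinning, C1qb was found in 89.8% of spots of the purchased E14.5 liver, with a median of 63832.5 UMIs per spot, and in 14.0% in wild-type spleen 2. In the knockouts, where C1qa should be absent, a C1qa count was left in 0.0466 to 0.170% of unthinned spots, from 1 or 2 counts per section. Whether these counts were stray signal was not tested, and the deleted segment is not given. This share does not measure signal off tissue, since the cross sections hold no off-tissue spots. In the purchased spleen there were 118 C1qa counts per 100 off-tissue spots, which is another measure in another section. Whether those counts spread from the tissue was not tested.

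**Figure D3:**
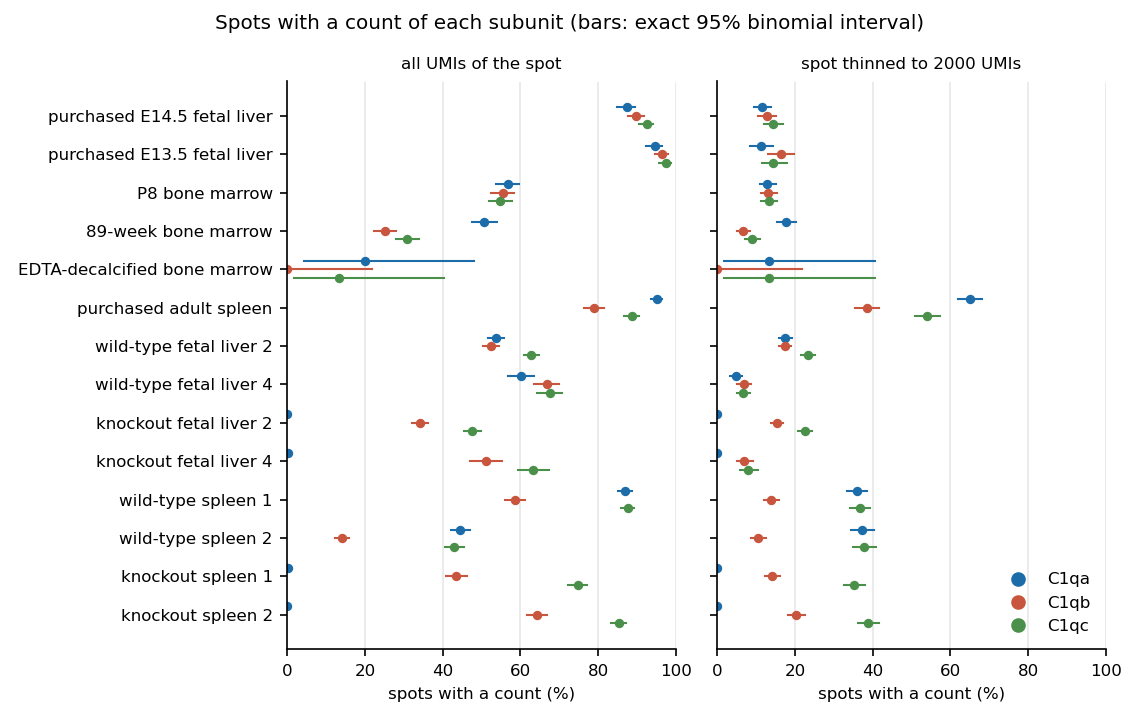
Percent of spots with a count of C1qa, C1qb or C1qc in each section, without thinning and with each spot thinned to 2000 UMIs, with bars for exact 95% binomial intervals. At equal depth C1qa (in wild types) and C1qc sit between 35.3 and 38.9% in the cross spleens and C1qb between 10.5 and 20.4%.

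All 3 subunits were seldom counted in 1 thinned spot. They occurred together in 18.7% of spots of the purchased spleen, in 2.04% and 2.75% of wild-type spleens 1 and 2, and in 0 to 0.871% of the wild-type livers and the P8 and 89-week marrows. Whether C1qb and C1qc shared spots more often than their separate shares give was read from the log2 odds ratio of the 2 genes (0 for no association). It was 0.21 and 0.66 in wild-type livers 2 and 4, 0.38 and 1.16 in knockout livers 2 and 4, -0.01 and 0.55 in wild-type spleens 1 and 2, and 0.58 and 0.55 in knockout spleens 1 and 2. In the purchased sections it was 0.80 in the E14.5 liver, -0.43 in the E13.5 liver, 0.50 and 0.71 in P8 and 89-week marrow and 0.95 in the spleen. The E13.5 value, the lowest of all, was 1.00 at 1000 UMIs and 0.14 at 5000 UMIs, so the thinned odds ratios of single sections were unstable. The cross tissues overlapped, with a mean difference, spleen minus liver, of -0.19 (exact permutation p = 0.486, adjusted 0.667). This value took the opposite sign at the other depths, with 0.81 at 1000 UMIs, 0.81 at 5000 UMIs and 0.35 without thinning.

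Over full spots, the correlation of C1qb and C1qc was above 0 in each of 13 sections, but close to 0 in some. Pearson r between their log2(1 + counts per 6000 UMIs) was 0.338 and 0.578 in the purchased E14.5 and E13.5 livers, 0.281 and 0.0924 in P8 and 89-week marrow, and 0.421 in the purchased spleen. In the cross it was lowest in the livers of litter 2, at 0.0665 in the wild type and 0.0397 in the knockout, and highest in wild-type liver 4 at 0.419 and knockout spleen 2 at 0.401. Wild-type liver 4 and knockout liver 4 (0.230) also hold tissue that is not liver. The correlation between C1qb in a spot and C1qc in the adjacent spots was lower than in the same spot in 12 of 13 sections, ranging from 0.0217 to 0.311, and wild-type liver 2 was the exception at 0.0678. The points share library, depth and tissue structure, so no p is given. Low r went with low depth in part: wild-type spleen 2, with 0.0732, had a median of 2293.5 UMIs per spot, but knockout spleen 1 had 7846 and 0.322. The part of depth in these values was not tested.

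**Figure D4:**
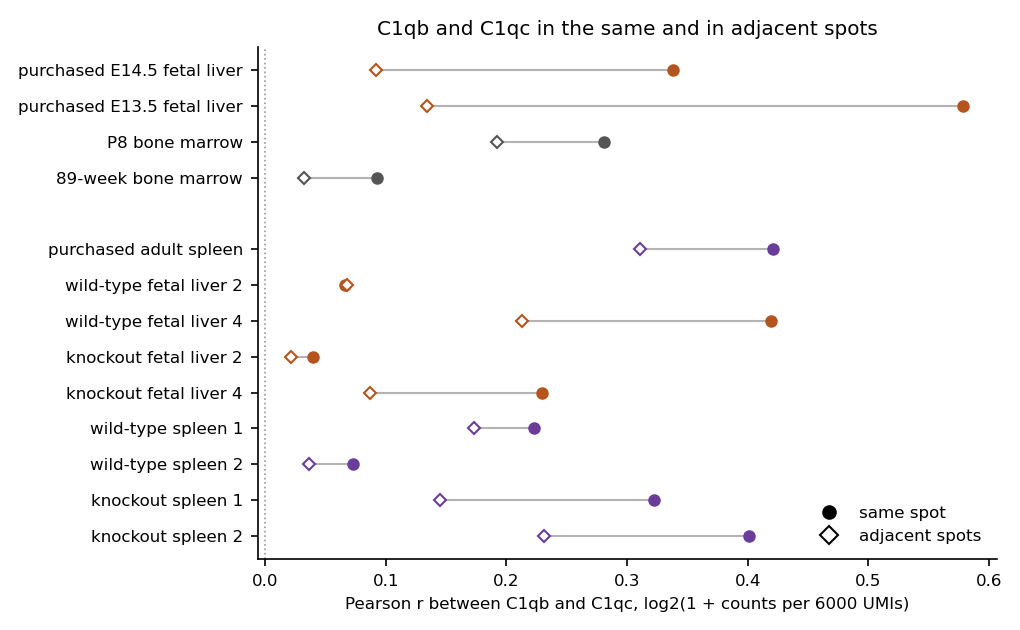
Pearson r between C1qb and C1qc across the spots of 13 sections (the EDTA-decalcified marrow is left out), with filled circles for the same spot and open diamonds for C1qb against C1qc of adjacent spots, coloured by tissue. The same-spot value is the higher in 12 sections, and the 2 values coincide in wild-type liver 2.

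The summed C1qb and C1qc counts were patchy. Their variance across spots was 1.13 times that of Poisson counting in wild-type liver 2 and 5.42 times in the purchased spleen. Moran's I, a measure of how alike adjacent spots are that is near 0 for no pattern, ran from 0.0504 in knockout liver 2 to 0.324 in wild-type liver 4 among livers, and from 0.0692 in wild-type spleen 2 to 0.390 in the purchased spleen among spleens. The top 10% of spots of the purchased spleen held 18.3% of the counts and 6.18% of the UMIs.

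The C1qb and C1qc counts were higher in erythroid-rich spots. The 25% of spots with the highest and the 25% with the lowest share of erythroid genes (globins, Alas2 and others) were compared in CPM, leaving the UMIs of the ranking genes out of the total. In fetal liver the sum of C1qb and C1qc went from 155 to 195 CPM in the purchased E14.5 section, from 142 to 257 CPM at E13.5, from 200 to 307 CPM in wild-type 2, from 57.6 to 72.4 CPM in wild-type 4, from 199 to 335 CPM in knockout 2 and from 67.6 to 83.7 CPM in knockout 4. It was thus higher in 6 of 6 livers, by a mean log2 difference of 0.53 ± 0.24 (SD, n = 6), with an exact sign-flip permutation p = 0.0312, the smallest that 6 sections allow, and 0.125 adjusted over 6 tests. This test, too, took same-numbered livers as independent sections. With the erythroid UMIs kept in the total the mean was 0.33 and the range 0.09 to 0.66, still higher in 6 of 6. In the litter 4 sections the erythroid-poor spots had 0.101% and 0.159% of their UMIs from erythroid genes, against 11.1 to 15.8% in the other 4 livers. Within hepatocyte-positive spots the difference was still positive in 6 of 6 livers, from 0.07 to 0.86. Erythroid-rich spots were also the deeper ones in each liver, with medians of 51737 and 77064 UMIs per spot in erythroid-poor and erythroid-rich spots of the E14.5 section, and the part of depth was not tested.

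The spleen contrast was larger. C1qb and C1qc summed to 328 CPM in erythroid-poor and 1342 CPM in erythroid-rich spots of the purchased spleen, 155 and 534 CPM in wild-type 1, 263 and 505 CPM in wild-type 2, 265 and 640 CPM in knockout 1, and 295 and 752 CPM in knockout 2. All 5 spleens moved the same way, by a mean log2 difference of 1.48 ± 0.43 (SD, n = 5) or 2.78-fold. Spots rich in B cell genes (Cd79a, Ms4a1 and others, the genes of follicles) showed the reverse in 5 of 5 spleens, with 137 to 330 CPM against 375 to 1086 CPM in B cell-poor spots and a mean of -1.44 ± 0.27. Each of these had an exact permutation p = 0.0625, the smallest for 5 sections, and an adjusted p of 0.125. Median depth was 9301 and 9775 UMIs per spot in the erythroid-poor and erythroid-rich spots of the purchased spleen, and in the 4 cross spleens the erythroid-rich spots were the shallower, with 13250 and 10954 in knockout spleen 2.

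Among the other lists tested, the differences were smaller. T cell-rich spots of the spleen differed by -0.23 ± 0.34 (higher in 2 of 5 sections, exact permutation p = 0.25, adjusted 0.3). In fetal liver hepatocyte-rich spots differed by 0.15 ± 0.31 (higher in 2 of 6, p = 0.5 by the exact permutation test), with the 2 positive values in the livers of litter 2, and neutrophil-rich spots by 0.10 ± 0.13 (higher in 5 of 6, exact permutation p = 0.156, adjusted 0.234). In neutrophil-rich spots of the spleen, which were not tested, the sum was higher in 5 of 5 sections by 0.43 to 1.44. Of further lists that were not tested, spots rich in megakaryocyte genes had more in 6 of 6 livers (0.12 to 0.83) and 5 of 5 spleens (0.36 to 1.01). Spots rich in the study's list of other macrophages, which includes Lyz2 and Cd74, had more in 6 of 6 livers by 0.03 to 1.28, with a mean of 0.60 that exceeds the erythroid one, and less in 5 of 5 spleens, by -0.99 to -0.42. In the marrows it was 122 and 201 CPM in erythroid-poor and erythroid-rich spots at P8, where the median depth was 15478 and 33801 UMIs per spot, and 93.5 and 93.8 CPM at 89 weeks. The P8 spots were not limited to marrow, so erythroid-poor spots there may hold other tissue of the femur, which was not tested. C1qa followed the pair where it was intact, with log2 differences of 0.36 to 0.83 over 4 wild-type livers and 1.40 to 1.85 over 3 wild-type spleens between erythroid-rich and erythroid-poor spots.

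**Figure D5:**
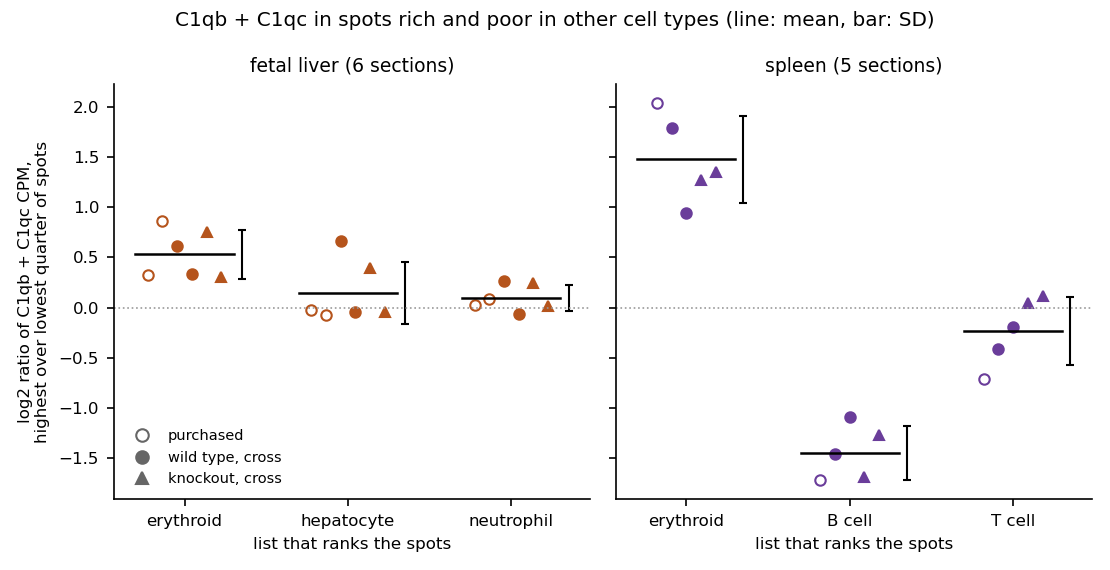
Log2 ratio of C1qb + C1qc CPM between the 25% of spots highest and the 25% lowest by the named marker list, in 6 fetal livers (left) and 5 spleens (right). Each point is a section, open circles are purchased, filled circles wild type and triangles knockout, the line is the mean and the bar the SD. Erythroid-rich spots lie above 0 in all 11 sections and B cell-rich spots below 0 in all 5 spleens.

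The knockouts were checked by C1qa. It had 1 count in each knockout liver, and 2 counts and 1 count in knockout spleens 1 and 2, against 1939 and 1023 in wild-type livers 2 and 4 and 4343 and 1135 in wild-type spleens 1 and 2. Knockout liver 2 had 0.0866 CPM with an exact 95% Poisson interval of 0.00219 to 0.482. The fitted log2 change was -10.25 in liver and -10.79 in spleen. C1qa fell in spleen (edgeR quasi-likelihood adjusted p = 1.74268e-14). In liver the same test gave an adjusted p of 0.999821 even for this deleted gene (0.00012879 unadjusted). The 2 wild-type livers had 95.9 and 25.8 CPM of it. With litter as a block the liver value was -9.64 and the edgeR adjusted p 2.63866e-69, and C1qa passed. The spread in the blocked fit came almost wholly from all genes together, not from replicates of C1qa. Each number marks a litter in the livers, so the blocked liver values are printed beside the others.

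In fetal liver neither C1qb nor C1qc passed the test. C1qb was 92.8 CPM in the wild type and 81.7 CPM in the knockout of litter 2, and 31.8 and 29.1 CPM in litter 4. C1qc was 132 and 136 CPM in litter 2 and 32.2 and 39.2 CPM in litter 4. Within each litter the genotypes were closer than the litters were to each other. The log2 change, knockout minus wild type, was -0.35 for C1qb (SE 0.97, 95% interval -2.66 to 1.95) and -0.11 for C1qc (SE 1.10, interval -2.70 to 2.49), both at an edgeR adjusted p of 0.999821. With the litter block the intervals narrowed to -0.91 to 0.17 for C1qb (edgeR adjusted p = 0.919) and -0.60 to 0.48 for C1qc (0.966). That fit drew its spread almost wholly from all genes together. These widths therefore do not measure the replicate spread of C1qb or C1qc. edgeR called 0% of 18986 genes in either direction without the block (138 at an unadjusted p under 0.05, and 7 adjusted calls by DESeq2) and 0.827% with it.

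In the spleen C1qb rose in the knockouts. It was 73.5 and 62.5 CPM in wild types 1 and 2 and 81.9 and 119 CPM in knockouts 1 and 2, or 68.0 ± 7.83 and 100.5 ± 26.3 CPM (SD, n = 2 each). The groups did not overlap, and knockout 2 stood above the rest. The fitted log2 change was 0.83 (SE 0.20, 95% interval 0.41 to 1.25), or 1.78-fold, with an edgeR adjusted p of 0.00759. In plain CPM it was 0.56, and with upper-quartile scaling, which moved the median of all genes from -0.08 to -0.37, it was 0.52. Relative to the median of all genes it was 0.91 and 0.89 under these scalings. The call rests on knockout spleen 2, which also held the most pancreas RNA: without that section the change was 0.42 (edgeR adjusted p = 0.390). Without pancreas-positive spots it was 0.85 (edgeR adjusted p = 0.00911). Of 18895 genes tested, 20.6% passed, 13.8% higher and 6.79% lower in knockouts, so a pass was common. Upper-quartile scaling turned this split, with 1197 genes higher and 4400 lower against 2603 and 1283. Without knockout spleen 2, 240 genes passed.

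C1qc in spleen was 220 and 255 CPM in the wild types and 242 and 264 CPM in the knockouts, with overlap between the groups. Its log2 change was 0.35 (SE 0.18, interval -0.02 to 0.73, edgeR adjusted p = 0.142). C1qc passed without wild-type spleen 2, at 0.45 (edgeR adjusted p = 0.0346). The C1qc to C1qb ratio was accordingly lower in the knockout spleens, by 0.45 on the log2 scale without overlap (exact permutation p = 0.333, the smallest for 2 against 2, adjusted 0.444), and higher by 0.32 in the knockout livers (exact permutation p = 0.667). That test does not pair the litters. The livers overlapped between litters, while the knockout was the higher in both, at 1.66 against 1.42 in litter 2 and 1.34 against 1.01 in litter 4. At 2000 UMIs per spot the share of spleen spots with C1qb was 17.2 ± 4.41% in knockouts and 12.2 ± 2.35% in wild types, and that with C1qc 37.1 ± 2.55% and 37.3 ± 0.736% (SD, n = 2 each). Erythroid genes took 8.85% of UMIs in wild-type spleen 1 and 1.17 to 2.66% in the other 3 cross spleens, and neutrophil genes 0.0593 and 0.0662% in wild types but 0.00735 and 0.0131% in knockouts. The part of these in the C1qb change was not tested.

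Whether the genotype change differed between tissues was tested by an interaction over 8 sections. For C1qb the spleen change exceeded the liver change by 1.16 (SE 1.25, edgeR adjusted p = 0.675), and for C1qc by 0.43 (SE 1.39, edgeR adjusted p = 0.908). No gene of 19180 passed this edgeR test (0%, with 2018 at an unadjusted p under 0.05 and 9 adjusted calls by DESeq2). With replicate number as a block, C1qb passed at 1.16 (SE 0.34, edgeR adjusted p = 0.0249), but the numbers mark litters in the livers and have no stated meaning in the spleens. The sign turned to -0.45 without wild-type liver 2.

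Genes that work with C1q were followed in the same fits. Of 17 complement and C1q-binding genes 16 were tested and C1s1 was not in the table. In liver none passed (median log2 change -0.40, against 0.00 over all genes). That median joins both litters. Hepatocyte genes took a lower share of UMIs in the knockout than in the wild type of litter 2, but a higher one in litter 4. Their part in the median was not tested. In spleen 3 rose and 1 fell, with a median of -0.05 against -0.08 over all genes. Cd55, a membrane protein that breaks up complement convertases, was 88.9 and 74.1 CPM in wild types and 165 and 200 CPM in knockouts, a log2 change of 1.42 (edgeR adjusted p = 5.08897e-05). Calr, a chaperone that binds C1q, was 415 and 492 CPM against 647 and 663 CPM, a change of 0.79 (edgeR adjusted p = 0.00880). Cr1l, a regulator of C3 activation, had 131 and 115 CPM against 148 and 138 CPM, a change of 0.47 (edgeR adjusted p = 0.0444). The gene that fell was C1rb, a C1r protease paralog, whose counts may be shared with C1ra, from 16.0 and 14.4 CPM to 9.07 and 6.03 CPM, with a change of -0.79 (edgeR adjusted p = 0.0302), which did not pass in DESeq2 (adjusted p = 0.0775). Without knockout spleen 2 only Cd55 of these 4 passed (edgeR adjusted p = 0.0272). The share called, 4 of 16, is near the 20.6% of all genes.

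The C1q+ macrophage list, 17 genes that the study took from fetal liver single-cell data besides the subunits themselves, had 0 higher and 1 lower in spleen, where 20.6% of all genes passed, and none in liver, where 0% did. The median log2 change was 0.05 in spleen and -0.18 in liver. The 1 gene was Cd5l, a secreted scavenger protein of macrophages, which measured 310 and 130 CPM in the wild-type and 92.1 and 89.3 CPM in the knockout spleens, a change of -1.03 (edgeR adjusted p = 0.00899), which did not pass in DESeq2 (adjusted p = 0.218) or without knockout spleen 2 (edgeR adjusted p = 0.171). Hmox1, the heme-degrading enzyme of the same list, was 1100 and 617 CPM against 566 and 586 CPM and did not pass (edgeR adjusted p = 0.308). The 5 pan-macrophage genes gave no call in either tissue against the same 20.6% and 0%, with medians of -0.11 in liver and 0.18 in spleen. Spi1, which encodes the macrophage transcription factor PU.1, rose in spleen from 129 and 147 CPM to 173 and 163 CPM, a change of 0.55 (edgeR adjusted p = 0.0248, and 0.350 without knockout spleen 2), and did not pass in liver.

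The genes whose spot pattern was most like that of C1qb and C1qc together differed by tissue in part. Hmox1 and Ctsb were among the nearest 8 in both liver and spleen. Likeness was the mean Pearson r across spots, over 6 livers, 5 spleens or 2 marrows, and C1qa could be ranked only where no knockout entered, in marrow. Of 8465 genes in fetal liver the nearest 8 were Lgmn (0.270), Hmox1 (0.265), Ctsb (0.254), Csf1r (0.235), Cd5l (0.233), Tmsb4x (0.212), Fcer1g (0.209) and Fcna (0.204). Lgmn and Ctsb are lysosomal proteases, Csf1r is the receptor for macrophage growth factor, and Fcna is a ficolin, a recognition protein of the lectin pathway of complement. All 15 ranked genes of the C1q+ macrophage list were within the nearest 100, and 8 of 17 erythroid genes. So were 7 of 16 ranked genes of the study's list of other macrophages and 3 of 4 pan-macrophage genes.

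In spleen, of 8066 genes, the nearest were Hba-a2 (0.434), Hbb-bs (0.429), Hbb-bt (0.425), Slpi (0.419), Hmox1 (0.414), Alas2 (0.391), Car2 (0.385) and Ctsb (0.385). Of these 8, 4 are genes of the erythroid list, globins and the heme synthesis enzyme Alas2, although near-identical globin copies share sequence and their split is uncertain. Of the list genes ranked, 10 of 13 erythroid and 8 of 15 C1q+ macrophage genes were within the nearest 100, and 0 of 6 B cell genes, whose median r was -0.26. In the marrows, of 8995 genes, C1qa itself was nearest (0.308), followed by Selenop (0.232), Apoe (0.183), Ctss (0.175), Stab1 (0.168), Axl (0.167), Mrc1 (0.166) and Ly6e (0.165). In thinned spots C1qa stayed nearest and Axl, Mrc1 and Ly6e stayed within the nearest 100. Selenop, Apoe, Ctss and Stab1 fell to ranks 139, 793, 715 and 1584. Stab1 and Mrc1 are scavenger receptors and Axl is a receptor for dying cells. In the marrows 7 of 15 C1q+ macrophage genes were within the nearest 100, and 0 of 17 erythroid genes. The study's list of other macrophages had 7 of 18 there. The pan-macrophage genes had 0 of 5, with a median rank of 1243, so these genes did not follow in marrow. In single wild-type sections C1qa ranked from 1 of 11998 genes in the E13.5 liver (r = 0.626) to 194 of 9628 in wild-type liver 2 (r = 0.110). These r are weak where depth is low and are given as a description.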

How the data were processed

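Probe-based Visium libraries of 14 mouse sections were counted by the authors with Space Ranger (build mm10 per the labels); file headers name Cell Ranger 4 or spaceranger 2.1.1, 3.1.2 and 4.0.1. The deposited matrices are raw counts of UMIs for each gene in each spot, not normalized, and the deposited barcode, gene and position tables hold other values (names and spot places). Of 32589 features of the purchased sections, 304 have no gene name and took 0.0308 to 1.28% of UMIs; they were left out of the list of genes. No column of another sample was present. The 3 members and all gene lists were chosen with earlier results of these data known. The text names the members in every section, up to 4 list genes with the smallest adjusted p, and the 8 genes of highest likeness (genes counted in at least 5% of spots of each section); Hmox1 in spleen was added after its values were seen. Some list genes are not reported here.

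Counts of passing spots (at least 1000 genes) were summed per section, the replicate, and tested with edgeR 4.0.16 in R 4.3.3 (quasi-likelihood, TMM, filterByExpr, Benjamini-Hochberg over all genes); DESeq2 1.42.0 was an alternative. Calls are at an adjusted p of 0.05. Ratios, shares, odds ratios (0.5 added) and spot contrasts were tested over sections with 2-sided exact permutation tests in Python 3.11.15 (scipy 1.17.1). No p was taken from spots. Scripts were tested on simulated data. Samples were grouped by their titles. The study describes its mouse Visium livers and spleens as biological replicates, and each section was taken as 1 sample. Same-numbered livers deviated together (r = 0.703 over genes, litters from the study's supplementary legends). Replicates were not duplicates (chi-square per degree of freedom of 21.8 or more). Intervals and the floor of 3 counts per section cover counting error only; depth was 4225805 to 55937699 UMIs per section, and 37135 in the EDTA-decalcified marrow.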

Additional observations from a re-analysis of the deposited data

Results flagged for a closer look

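Among the 4 cross spleens the log2 odds ratio of C1qb and C1qc in the same thinned spot was -0.013 in wild-type spleen 1, far from the other 3, which lay close together between 0.55 and 0.58. It stood apart at 2000 UMIs only: wild-type spleen 1 had 0.60 at 1000 UMIs, where the others had 0.69 to 0.80, 0.76 at 5000 UMIs, where they had 0.90 to 1.21, and 1.14 without thinning, where wild-type spleen 2 was lower at 0.66. Of 10 groups checked this way, chance alone flags about 1 in 20. The C1qb knockout change was 1.16 larger on the log2 scale in spleen than in fetal liver with replicate number as a block, where it passed; without the block it did not.

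C1q counts were also present in spots outside the comparisons. Off tissue, the 3 subunits summed to 3654 counts in the purchased E14.5 liver, 2812 in the E13.5 liver, 2305 in P8 marrow, 1379 in 89-week marrow, 7 in the EDTA-decalcified marrow and 10131 in the purchased spleen. In CPM these were close to the tissue: C1qa was 49.5 CPM off and 62.5 CPM on tissue in the E14.5 liver, and 683 and 570 CPM in the purchased spleen. There the off-tissue spots held 118 C1qa counts per 100 spots. In-tissue spots with under 1000 genes summed to 63 counts in the EDTA-decalcified marrow, 71 in the purchased spleen, 6 in wild-type liver 2, 17 in knockout liver 2, 153 in wild-type spleen 2 and 7 in knockout spleen 1.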

How the results depend on the processing

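Of the alternatives tried, 205 values of the main results kept their direction and side of the threshold and 39 did not; for ratios, shares, odds ratios and spot contrasts, no adjusted p could pass, so only direction was compared. Leaving out 1 section at a time, the log2 C1qc to C1qb difference between tissues ran from 1.01 to 1.30, C1qb + C1qc in erythroid-rich spots from 0.47 to 0.58 in liver and 1.34 to 1.61 in spleen, and in B cell-rich spots from -1.53 to -1.37. The liver knockout changes ran from -10.98 to -8.29 for C1qa (passing without either wild-type liver), from -2.09 to 1.33 for C1qb and from -2.11 to 2.00 for C1qc. In spleen C1qb ran from 0.42 to 1.13 and C1qc from 0.19 to 0.48, and the difference of changes from -0.45 to 2.90 for C1qb and from -1.61 to 2.43 for C1qc. Shares of spots ran from -6.31 to 4.28 points (C1qb, liver), -8.03 to 8.68 (C1qc, liver) and -2.03 to 1.58 (C1qc, spleen), and the odds ratios from -0.060 to 0.73 (knockout minus wild type, liver) and from -0.32 to 0.00047 (spleen minus liver). The cause of these moves was not tested.

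C1qa in liver passed with DESeq2 (-10.37), the replicate block (-9.64), hepatocyte-positive spots (-9.84) and both of the latter (-9.50, chosen after seeing the data). In a joint fit of 8 sections the spleen changes no longer passed (C1qa -10.79, C1qb 0.82). Upper-quartile scaling turned C1qc in liver to 0.027. The C1qc share, knockout minus wild type, turned to -9.70 points in liver without thinning, and in spleen to 1.05, 1.63 and 14.7 points at 1000 UMIs, 5000 UMIs and without thinning. In the same order the liver odds ratio difference turned to -1.10, -0.29 and -0.55, and the spleen minus liver one to 0.81, 0.81 and 0.35. In hepatocyte-positive spots (also chosen after seeing the data) the liver contrast was -0.013 for hepatocyte and -0.059 for neutrophil genes. The block moved the calls to 157 from 0 in liver, to 4968 from 3886 in spleen and to 1131 from 0 for the difference between tissues, where C1qb passed at 1.16; beside these and C1qa in liver it changed no call of a subunit. Same-numbered spleens shared only a number (r = 0.0650 of their deviations). DESeq2 called 7, 2644 and 9 genes. Of the other values (likeness, and levels over every in-tissue spot) 74 stayed and 16 moved, all of them likeness values with thinned spots, where 2, 7 and 1 of the 8 nearest genes stayed nearest in liver, spleen and marrow. Depth limits C1qb in wild-type spleen 2 (264 counts) and every gene of the EDTA-decalcified marrow.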
